A study of Cucumis sativus with 12 samples.

Results

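The comparison described here sets cucumber leaves after 12 h of cold against leaves sampled at 0 h, just before the cold began. It uses 6 of the 12 RNA-seq libraries of the series, 3 at each time, and covers the 24317 genes of the deposited table, of which 17497 were expressed highly enough to be tested. All leaves came from seedlings of the inbred line JinYan No. 4 with 3 true leaves. The 0 h seedlings had grown in a phytotron with warm, long days, and the 12 h seedlings had been moved to a regime with colder days and nights and a shorter day. The other 6 libraries, at 3 and 24 h of the same cold, share the fit and are used to place single genes in time.

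The study's own interest was the glutathione S-transferase family, and its 46 CsGST genes are left out of every group and every named gene below. There was no warm control at 12 h. Cold, the hour of the day, the changed light period and seedling age cannot be told apart in this comparison, and the sources used here do not say whether leaves were sampled in light or dark. Whether the 3 libraries of a time came from separate plants is given only as biological replicates, so p-values measure the spread between these libraries.

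A leaf run by a circadian clock changes much of its RNA between morning and evening even when nothing else changes. Genes for light harvesting, nitrate reduction and starch turnover are among the best known outputs of the clock and of light. Chilling of a cold-sensitive plant such as cucumber is known to slow photosynthesis and membrane transport, and plants in general answer cold with transcription factors of the DREB family, protective dehydrins, chaperones, soluble sugars and more unsaturated membrane lipids.

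At 12 h of cold, 1684 of the tested genes (9.62%) had risen and 2912 (16.6%) had fallen. Genes passed the test when limma, fitted on log2(FPKM + 0.5), gave them a p under 0.05 after Benjamini-Hochberg adjustment together with a change of more than 1 on the log2 scale in either direction. FPKM is the number of fragments scaled by gene length and by the total of a library, and fold changes with 0.5 added understate the change of genes with low FPKM. The balance of higher and lower genes depended on the scaling. Over the tested genes the median change was -0.23 on the log2 scale, and median-ratio rescaling, which divides a library by its median ratio to the average library, moved it by 0.22, to -0.01, and gave 2296 higher (13.1%) and 1986 lower genes (11.4%). The share of called genes that were higher was thus 36.6% as deposited and 53.6% after rescaling. All 1684 higher genes stayed called under rescaling, and 1986 of the 2912 lower genes did. The rescaling moved fold changes upward, so this difference follows from its direction and does not make the higher calls firmer.

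The changes beyond 3 on the log2 scale were mostly increases, with 187 genes higher and 104 lower. Beyond 2 the counts were close, with 507 higher and 530 lower. The 3 libraries of a time lay close together, with correlations across genes of 0.984 to 0.990 within a time and 0.873 to 0.879 between the times. The first principal component of the 6 libraries held 87.8% of the variance and separated the times, and the second, with 4.24%, set the 12 h libraries apart from each other. Among the called genes, only 23 had overlapping libraries, so separate libraries add little to the call of a gene named below. The sources used here give no read totals. Low FPKM values step in units of 1 read, and these steps put the depth of the 6 libraries between 0.914 and 1.08 of that of 0 h replicate 1. The genes at 1 FPKM or more numbered 15101 to 15153 at 0 h and 14565 to 14819 at 12 h.

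**Figure D1:**
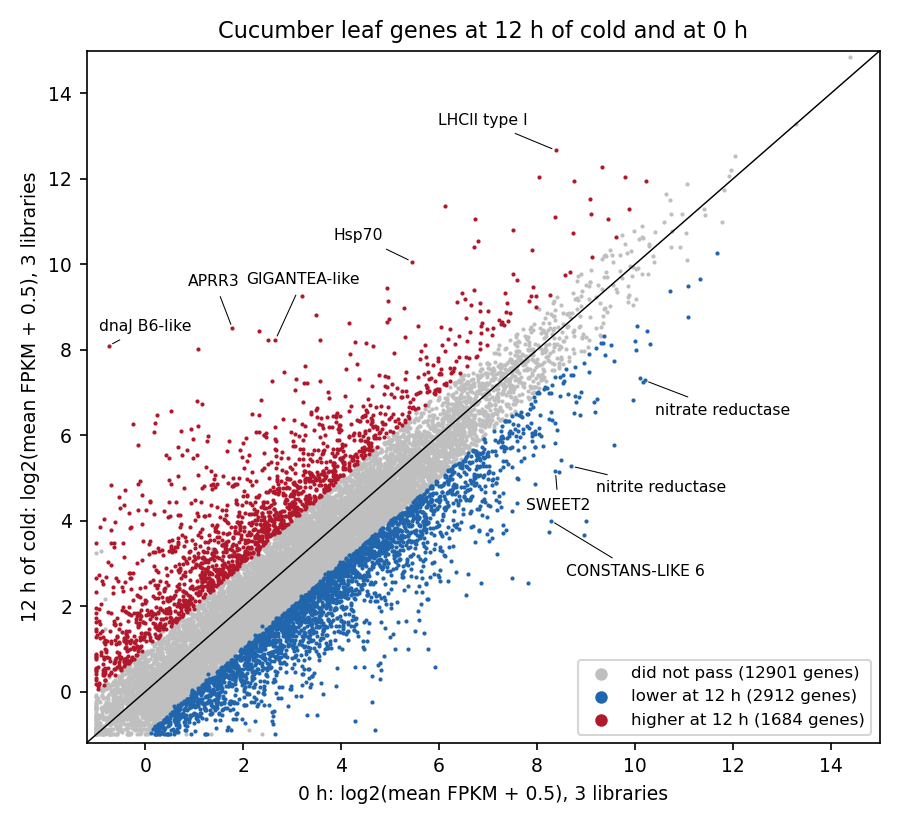
Mean level of each tested gene at 0 h (x axis) and at 12 h of cold (y axis), both as log2(mean FPKM + 0.5) over 3 libraries. Red points are the 1684 genes that were higher at 12 h, blue points the 2912 that were lower and grey points the 12901 that did not pass, and the line marks equal levels. The chlorophyll a-b binding gene labelled LHCII type I stands far above the line among abundant genes, and the nitrate reductase gene far below it.

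The gene groups below were set from the descriptions and the KEGG pathways in the deposited table. Each is read against the shares of all tested genes. In each group the 2 highest and 2 lowest members that passed were named by rule, and any further member named was chosen after its values were seen. In leaf RNA, a lower level may mean less RNA per cell or fewer cells of a type, and these cannot be told apart.

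**Figure D2:**
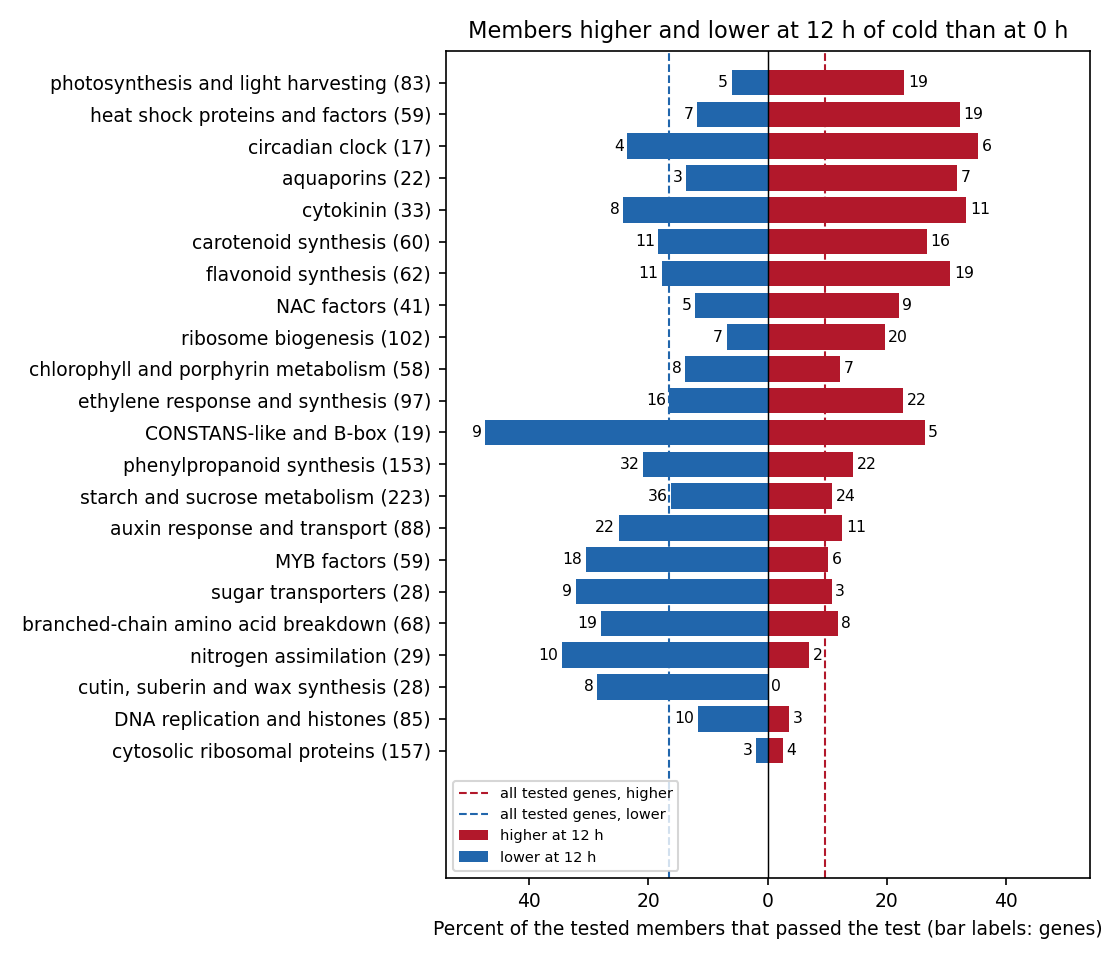
Percent of the tested members of gene groups that were higher (red, to the right) or lower (blue, to the left) at 12 h than at 0 h, with the number of genes at each bar and the number tested in parentheses. The dashed lines mark all tested genes, at 9.62% higher and 16.6% lower. The circadian clock group had 6 higher and 4 lower genes of 17, the CONSTANS-like group 5 and 9 of 19, and the cutin, suberin and wax group 0 and 8 of 28.

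The genes of the light-harvesting antenna stood out among abundant genes. Chlorophyll a-b binding proteins hold the chlorophyll that gathers light around photosystems I and II. Of the 20 tested genes of the KEGG pathway for antenna proteins, 15 were higher and 1 was lower at 12 h, with a median log2 fold change of 2.13. After median-ratio rescaling 16 were higher and none lower. This pathway was picked because its share of higher genes was the highest of 100 pathways.

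CsaV3_6G051530, an LHCII type I gene of the photosystem II antenna, had 326, 315 and 359.7 FPKM before the cold and 5540.4, 7294 and 6713 at 12 h. Every 12 h library was above every 0 h library, and the log2 fold change was 4.28 ± 0.18 SE (limma adjusted p = 1.13e-09). It was also higher at 12 h than at 3 h, by 2.41 (adjusted p = 2.36e-07, limma), and than at 24 h, by 1.78 (adjusted p = 6.65e-06). Its neighbour in the gene numbering, CsaV3_6G051520, carries the same description and went from a mean of 264 to 4247 FPKM, and reads of such close copies may be split between them.

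A further LHCII gene, CsaV3_1G032510, had 105, 101 and 113 FPKM at 0 h and 1814, 2418 and 2169.9 at 12 h. All 3 cold libraries were far above the control libraries (log2 fold change 4.31 ± 0.23 SE, limma adjusted p = 1.42e-08). At 24 h this gene had a mean of 527 FPKM, lower than at 12 h by 2.09 on the log2 scale (adjusted p = 1.91e-05, limma).

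Other LHCII genes followed the same direction. CsaV3_6G013800 rose from 638 ± 25.4 FPKM (SD, n = 3 here and below) to 4978 ± 480.01, CsaV3_3G031580 from 433 ± 19.5 to 3988 ± 475, the chlorophyll a-b binding protein 151 gene CsaV3_7G002620 from 1194 ± 46.5 to 3989 ± 334, and the protein 13 gene CsaV3_3G005950 from 111 ± 3.56 to 1493 ± 213. The minor antenna of photosystem II links the main antenna to the reaction centre. Of its genes, CP26 (CsaV3_5G039350) rose by 2.26 on the log2 scale, CP29.1 (CsaV3_4G026100) by 1.40, and CP24 (CsaV3_6G005340) by 1.04. After quantile normalization CP29.1 had 0.96 and CP24 0.80, within the fold threshold, and CP24 had 0.95 without 12 h replicate 2.

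Several photosystem I antenna genes rose as well. The gene of chlorophyll a-b binding protein 6A (CsaV3_5G025740) went from 106, 96.5 and 112 FPKM before the cold to 1231, 1555 and 1306 at 12 h (log2 fold change 3.69 ± 0.16 SE, limma adjusted p = 1.56e-09), with no overlap between the groups. Protein 7 (CsaV3_5G030270) rose from 330.2 ± 32.5 to 2215 ± 215 and P4 (CsaV3_1G002410) from 425 ± 13.7 to 1711 ± 195.3. Protein 8 (CsaV3_1G043710) had 1596 and 3192 FPKM, a log2 fold change of 0.99 just inside the threshold. It passed at 1.26 after median-ratio rescaling, and at 1.01, 1.06 and 1.02 without 0 h replicate 3, 12 h replicate 1 and 12 h replicate 3.

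**Figure D3:**
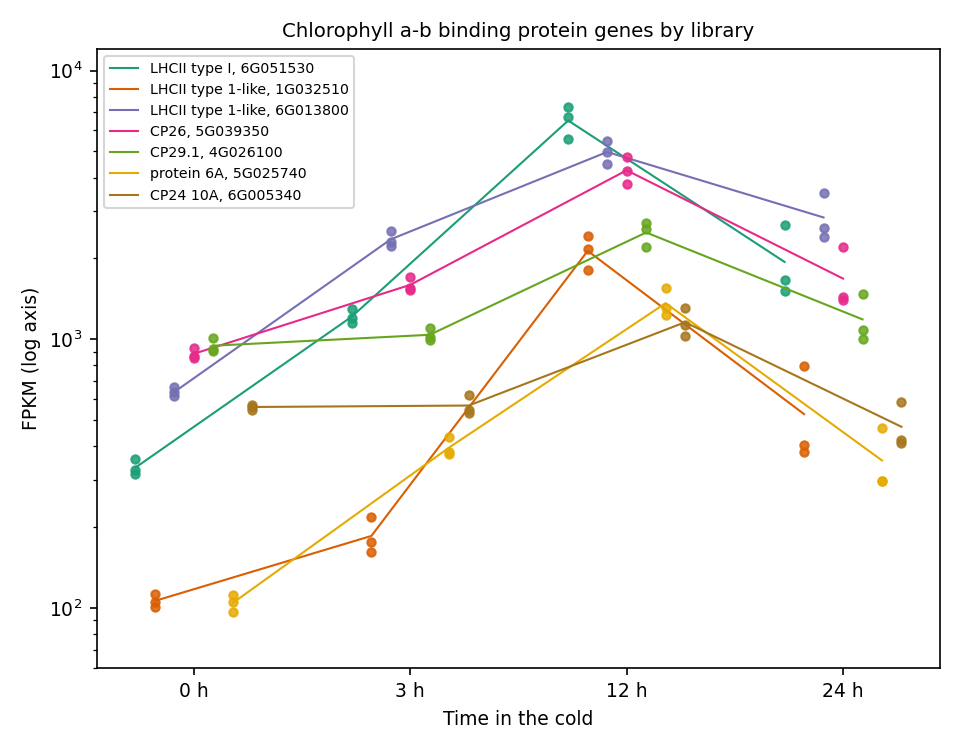
FPKM on a log axis of 7 chlorophyll a-b binding protein genes in each library at 0, 3, 12 and 24 h of cold, with the times equally spaced. Points are the 3 libraries of a time and lines join their means. All 7 genes were highest at 12 h, and the LHCII type I gene had 5540.4, 7294 and 6713 FPKM there against 326, 315 and 359.7 at 0 h.

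In the wider group of photosynthesis and light harvesting, 19 of 83 tested genes were higher and 5 lower, and after median-ratio rescaling 30 and 1. The group took 6.36% of the summed FPKM of a library on average at 0 h and 13.8% at 12 h, with no overlap between the libraries. The exact two-sided permutation test of 3 against 3 libraries gives p = 0.1 here, the smallest it can give. Outside the antenna, PSB28 of photosystem II (CsaV3_6G007340) rose from 116 ± 14.2 to 379 ± 33.3 FPKM. Among the lower members were a chloroplastic ATP synthase gamma chain (CsaV3_6G049050), at 31.9 and 9.98 FPKM, and a root-type ferredoxin-NADP reductase (CsaV3_6G052330), at 113 and 47.03, whose fold change was -0.99 after median-ratio rescaling and thus not called.

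The small subunit of Rubisco, the carbon-fixing enzyme, was the most abundant transcript. CsaV3_5G034360 took 3.5% to 4.22% of the summed FPKM at 0 h and 4.61% to 5.31% at 12 h, but its log2 fold change of 0.45 lay within the threshold. Over all tested genes 9.62% were higher and 16.6% lower. The Calvin cycle group had 6 higher (7.69%) and 9 lower genes (11.5%) of 78, both below that background, or 10 and 8 after rescaling. The group is the KEGG pathway of carbon fixation and also holds genes outside the cycle. Its highest was phosphoenolpyruvate carboxylase (CsaV3_4G033150), which fixes bicarbonate outside the cycle itself, at 34.96, 32.4 and 32.97 FPKM before the cold and 236, 206 and 289.7 at 12 h (log2 fold change 2.84 ± 0.11 SE, limma adjusted p = 7.71e-10). All its 12 h libraries were above all 0 h libraries. Cytoplasmic fructose-bisphosphate aldolase (CsaV3_7G021470) fell from 1209.6 ± 62.2 to 347 ± 21.2 FPKM, and the chloroplastic alpha carbonic anhydrase 1 gene CsaV3_3G037320 from 1033 ± 38.7 to 256 ± 27.8. The lowest member by fold was an NAD-dependent malic enzyme on an unplaced sequence (CsaV3_UNG009100), at 21.4 and 5.24 FPKM. Glyoxylate cycle and photorespiration had 7 higher and 11 lower genes of 88, or 9 and 8 after rescaling, with malate synthase (CsaV3_1G009520), of the glyoxylate cycle, falling from 9.81 to 2.01 FPKM and serine hydroxymethyltransferase 7-like (CsaV3_4G028640) rising from 14.7 to 91.3.

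Mesophyll markers contain many of these same genes, so their rise is not separate evidence. Of 36 tested mesophyll markers 18 were higher and 3 lower, and the list took 7.68% to 8.88% of the summed FPKM at 0 h and 14.2% to 16.8% at 12 h. Markers of other leaf cells were sparse. Phloem markers took 0.0871% to 0.144% at 0 h and 0.0674% to 0.0754% at 12 h, with 1 higher and 1 lower of 8 tested (2 lower without 0 h replicate 3) and the 17 kDa phloem lectin under 0.5 FPKM in all 6 libraries. Xylem and lignified cell markers took 0.0194% to 0.0206% and 0.0311% to 0.0371%, with 4 higher and 4 lower of 25 (5 and 2 after median-ratio rescaling) and COBRA-like protein 4 and cellulose synthase A subunit 8 under 0.5 FPKM. Epidermis and cuticle markers took 0.619% to 0.653% and 0.483% to 0.610%, with 12 higher and 20 lower of 91 (17 and 14 after rescaling). Root markers took 0.0106% to 0.0110% and 0.0130% to 0.0134%, with 2 higher and 1 lower of 18 (3 and 0 after rescaling, and 1 higher without 0 h replicate 3). The ranges of these lists did not overlap between the times, and their part in the other results was not tested.

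The genes of the circadian clock were split. In Arabidopsis the clock is a set of loops in which morning factors such as LHY, the pseudo-response regulators (APRR), which peak in turn over the day, and the evening gene GIGANTEA act on each other. Of the 17 tested clock genes, 6 were higher and 4 lower, and 6 and 3 after median-ratio rescaling.

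APRR3 (CsaV3_5G000090), a pseudo-response regulator, had 2.93, 3.03 and 2.81 FPKM at 0 h and 336, 379 and 373 at 12 h. The groups lay far apart, with a log2 fold change of 6.73 ± 0.10 SE (limma adjusted p = 2.03e-13). It was at a mean of 3.37 FPKM at 3 h and 342 at 24 h, and the 12 h and 24 h levels differed by 0.09 on the log2 scale (adjusted p = 0.471).

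A GIGANTEA-like gene (CsaV3_6G005020), of a family that links the clock to flowering, had 5.95, 5.69 and 5.77 FPKM at 0 h and 295, 309 and 298 at 12 h. All 12 h libraries were above all 0 h libraries (log2 fold change 5.58 ± 0.06 SE, limma adjusted p = 5.96e-14). The other annotated gene, GIGANTEA itself (CsaV3_7G024490), went the other way, from 17.6 to 7.43 FPKM, a log2 fold change of -1.19 that was -0.94 after median-ratio rescaling and no longer called.

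APRR7 (CsaV3_4G024430) rose from 6.596 ± 0.132 to 178 ± 4.29 FPKM, whereas a further gene described as APRR7 (CsaV3_5G000530) had 53.3 and 27.99 and did not pass, except without 12 h replicate 1, at -1.26 on the log2 scale. Adagio protein 3 (CsaV3_5G014370), a blue-light receptor F-box protein known as FKF1 in Arabidopsis, had 1.24, 0.901 and 1.13 FPKM at 0 h and 48.2, 54.5 and 54.4 at 12 h. It was low in every 0 h library and high in every 12 h library (log2 fold change 5.06 ± 0.15 SE, limma adjusted p = 5.91e-11).

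The morning factor LHY-like (CsaV3_6G008360) fell from 667 ± 19.4 FPKM to 236 ± 2.85. REVEILLE 1-like (CsaV3_5G020580) had 120.5, 121 and 121 FPKM at 0 h and 20.3, 22.7 and 23.7 at 12 h (log2 fold change -2.42 ± 0.11 SE, limma adjusted p = 2.36e-09). It was higher again at 24 h, where its mean was 65.8 FPKM (12 h minus 24 h -1.53, adjusted p = 5.52e-07). REVEILLE 8-like (CsaV3_3G035450) fell from 186 to 69.9, and REVEILLE 6-like (CsaV3_5G001040) rose from 13.99 to 40.3.

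CONSTANS-like and B-box proteins are zinc finger factors of light and day-length signalling. Of 19 tested, 9 were lower and 5 higher, and their share of the summed FPKM went from 0.473% to 0.198% on average. A CONSTANS-LIKE 2-like gene (CsaV3_4G009980) was the most abundant at 0 h, with 751, 758 and 774 FPKM before the cold and 48.9, 56.8 and 56.99 at 12 h. The 12 h values were all far below the 0 h values (log2 fold change -3.80 ± 0.11 SE, limma adjusted p = 5.46e-11). CONSTANS-LIKE 6 (CsaV3_6G003540) fell from 301, 318 and 315 to 15.3, 18.1 and 13.1 FPKM, a log2 fold change of -4.29, and CONSTANS-LIKE 9 (CsaV3_5G034710) from 92.7 ± 10.1 to 4.32 ± 0.637. A further CONSTANS-LIKE 6 gene (CsaV3_5G026860), CONSTANS-LIKE 16 (CsaV3_1G003800) and B-box protein 18-like (CsaV3_4G005810) fell by 4.27, 2.66 and 2.63 on the log2 scale.

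Against this direction, CONSTANS-LIKE 14-like (CsaV3_4G002870) rose, from 4.16, 4.596 and 4 FPKM to 66.5, 65.1 and 69.5. Its groups did not overlap (log2 fold change 3.83 ± 0.10 SE, limma adjusted p = 1.85e-11). CONSTANS-LIKE 5 (CsaV3_2G008220) rose from 27.5 to 103 FPKM and was at 34.8 at 24 h, and a putative CONSTANS-LIKE gene (CsaV3_2G035220) rose from 6.04 to 23.99.

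**Figure D4:**
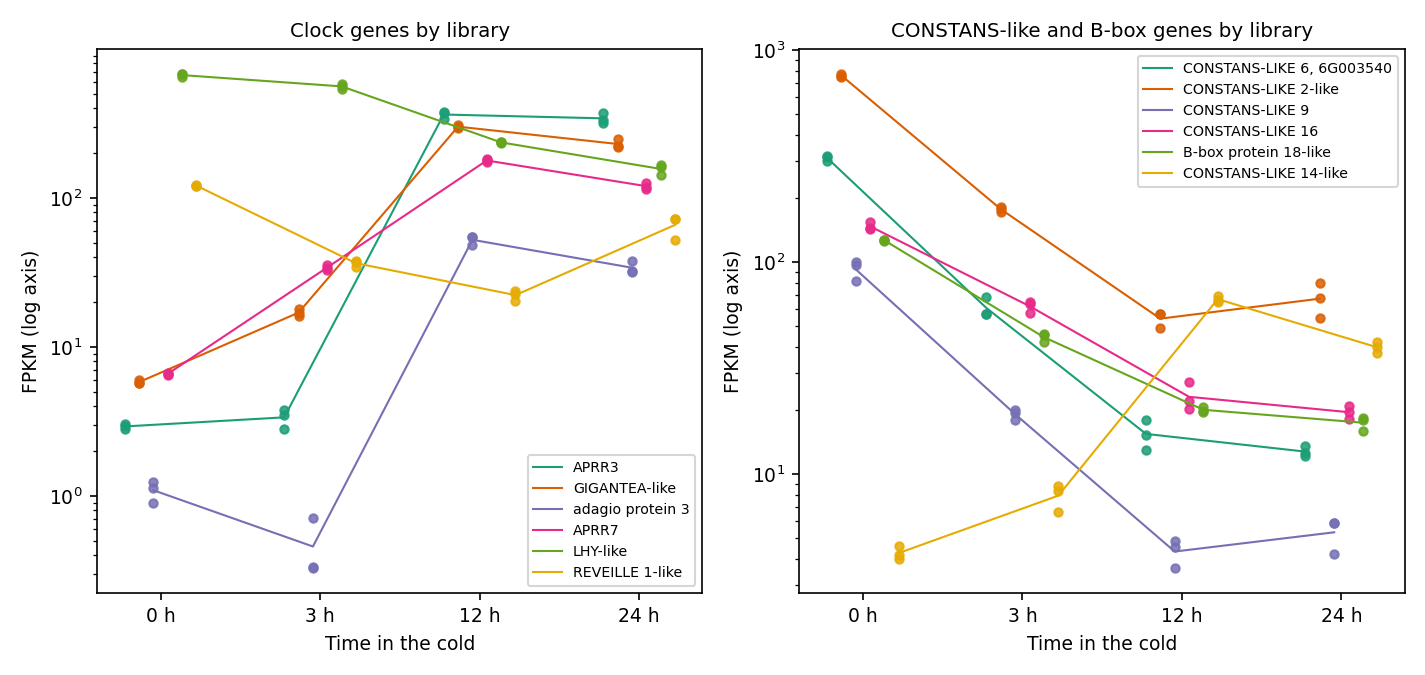
FPKM on a log axis of 6 clock genes (left) and 6 CONSTANS-like and B-box genes (right) in each library at 0, 3, 12 and 24 h of cold, with the times equally spaced. Points are the 3 libraries of a time and lines join their means. APRR3 rose from a mean of 2.92 to 363 FPKM and GIGANTEA-like from 5.804 to 301, and 5 of the 6 zinc finger genes were lower at 12 h than at 0 h, with CONSTANS-LIKE 14-like as the exception.

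The leading genes of nitrate assimilation were low at 12 h and high again at 24 h. Nitrate reductase turns nitrate into nitrite in the cytosol and nitrite reductase turns nitrite into ammonium in the chloroplast. Of 29 tested genes of nitrogen assimilation 10 were lower and 2 higher, with a median log2 fold change of -0.60, or -0.34 after median-ratio rescaling. The group took 1.03% of the summed FPKM at 0 h and 0.392% at 12 h.

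The nitrate reductase gene CsaV3_2G026770 had 990.1, 1322 and 1213 FPKM at 0 h and 151, 152 and 162 at 12 h, all lower. Its log2 fold change was -2.91 ± 0.15 SE (limma adjusted p = 6.53e-09). At 24 h its mean was 1289 FPKM, a difference of 12 h minus 24 h of -3.02 on the log2 scale (adjusted p = 2.95e-08, limma). A further nitrate reductase gene, CsaV3_5G023360, had means of 1144, 983, 151 and 1205 FPKM at 0, 3, 12 and 24 h, close to those of CsaV3_2G026770 at each time. The sources used here do not say how reads with several matches were counted, and these genes may share reads.

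CsaV3_5G023370 fell from 469 ± 15.9 to 89.1 ± 4.57 FPKM. The gene CsaV3_2G026780, next to CsaV3_2G026770, was uneven at 0 h, with 68.1, 433 and 409 FPKM, against 11.9, 12.8 and 13.9 at 12 h. The 0 h libraries spread widely but stayed above the 12 h libraries (log2 fold change -4.11 ± 0.77 SE, limma adjusted p = 0.000703), and without 0 h replicate 1 the fold change was -4.98. The SE draws on the spread of all 12 libraries, and those at 24 h were uneven too, with 603, 93.3 and 567 FPKM.

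Nitrite reductase (CsaV3_3G018610) had 405, 454 and 384 FPKM at 0 h and 40.3, 35.9 and 38.6 at 12 h. It was lower in every 12 h library (log2 fold change -3.42 ± 0.20 SE, limma adjusted p = 2.68e-08) and reached 562 FPKM on average at 24 h. Uroporphyrinogen-III C-methyltransferase (CsaV3_7G031380), which makes the siroheme cofactor of nitrite and sulfite reductase, had 183, 189 and 169 FPKM at 0 h and 20.4, 17.7 and 16.8 at 12 h. Here too no libraries overlapped (log2 fold change -3.27 ± 0.11 SE, limma adjusted p = 2.02e-10).

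Further along the pathway the changes were smaller. Ferredoxin-dependent glutamate synthase (CsaV3_3G040230) fell from 376 ± 24.9 to 154 ± 4.43 FPKM. The leaf isozyme of glutamine synthetase (CsaV3_3G013840), which takes up ammonium in the chloroplast, had 955 and 997 FPKM, with overlapping libraries and a log2 fold change of 0.06. Among transporters, the nitrate transporter 3.1-like gene CsaV3_1G008910 fell from 25.1 to 4.46 FPKM and ammonium transporter 1 member 2-like (CsaV3_2G010040) from 84.1 to 23.4. The rises were nitrate transporter 1.2-like (CsaV3_1G002140), from 3.06 to 12.5, and high affinity nitrate transporter 2.5 (CsaV3_5G031350), from 0.573 to 1.82. The latter had a fold change of 0.84 with a pseudocount of 1 and 0.99 without 12 h replicate 3, within the threshold.

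**Figure D5:**
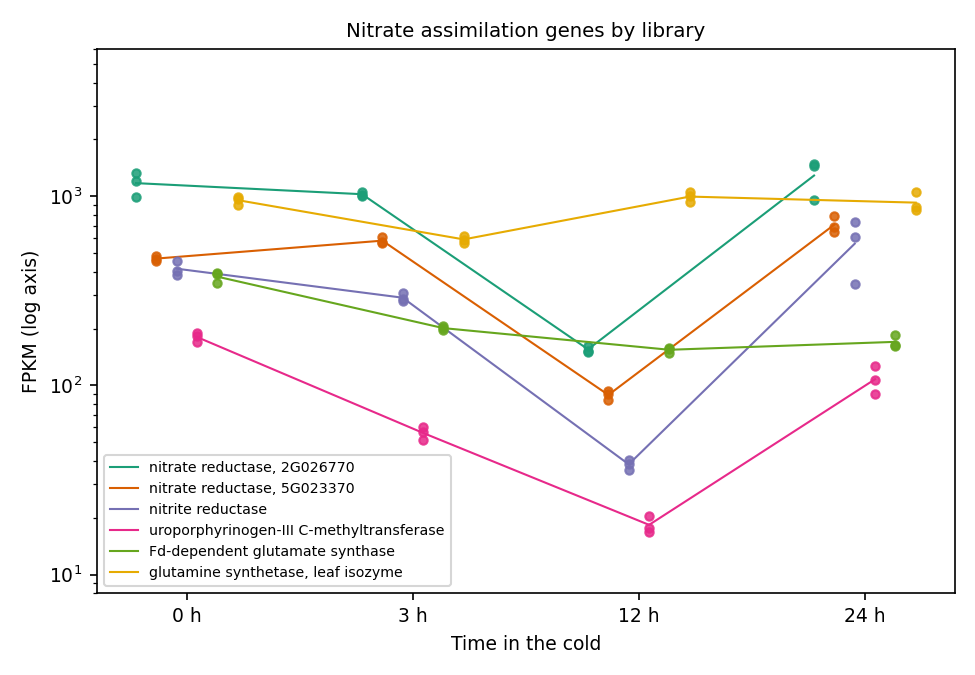
FPKM on a log axis of 6 genes of nitrate assimilation in each library at 0, 3, 12 and 24 h of cold, with the times equally spaced. Points are the 3 libraries of a time and lines join their means. Both nitrate reductase genes, nitrite reductase and uroporphyrinogen-III C-methyltransferase were lowest at 12 h, whereas the leaf glutamine synthetase gene stood at 955 FPKM at 0 h and 997 at 12 h.

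Sulfate assimilation went the other way at its key enzymes. 5'-Adenylylsulfate reductase 1 (CsaV3_1G010690), which commits sulfate to reduction, had 1.58, 1.41 and 1.42 FPKM at 0 h and 53.6, 62.9 and 63.7 at 12 h. The groups were far apart (log2 fold change 4.94 ± 0.15 SE, limma adjusted p = 9.59e-11). ATP sulfurylase 1 (CsaV3_3G012820), the step before it, rose from 20.5 ± 0.848 to 58.99 ± 5.62 FPKM, and sulfite reductase (CsaV3_1G042860), the step after, from 108 ± 2.304 to 227 ± 13.8. Over the whole group 5 of 32 genes were higher and 7 lower, and 8 higher and 1 lower after median-ratio rescaling, so that its balance turned with the scaling. The lowest member by fold was a calmodulin-like gene (CsaV3_2G013350), whose description does not name a sulfur enzyme. Phosphate homeostasis had 6 higher and 5 lower of 29, led by a PHO1 homolog 3-like transporter (CsaV3_5G033010) that went from 0.576, 0.909 and 0.407 to 21.9, 16.6 and 13.9 FPKM. All of its 12 h libraries were higher, with a log2 fold change of 3.99.

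The 12 highest folds included genes of several kinds. A dnaJ homolog of subfamily B member 6 (CsaV3_5G028590), a co-chaperone of Hsp70, had 0.109, 0.0774 and 0.101 FPKM at 0 h and 279, 264 and 276 at 12 h. It was nearly silent in all 0 h libraries and abundant in all 12 h libraries (log2 fold change 8.84 ± 0.12 SE, limma adjusted p = 1.44e-13). A cytochrome P450 gene (CsaV3_6G043630) had 1.46, 2.04 and 1.3 FPKM at 0 h and 251, 181 and 339 at 12 h, a log2 difference of 6.91 ± 0.49 SE (adjusted p = 3.43e-07). JMJD5 (CsaV3_1G042600), described as a lysine-specific demethylase and in Arabidopsis tied to the clock, had 0.564, 0.857 and 0.597 FPKM and 82.7, 84.5 and 98.9. The 12 highest folds were taken only among called genes without overlap, so the separation of their groups was set by the choice.

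Thiamine thiazole synthase (CsaV3_3G005340), which makes the thiazole part of vitamin B1, was both among the highest folds and among the largest gains in FPKM. Its libraries had 68.5, 63.8 and 75.4 FPKM at 0 h and 2432, 2835 and 2652 at 12 h (log2 fold change 5.24 ± 0.10 SE, limma adjusted p = 2.82e-12). At 24 h the mean was 959 FPKM, lower than at 12 h by 1.47 on the log2 scale (adjusted p = 3.19e-07). SufE-like protein 2 (CsaV3_2G025000), of chloroplast iron-sulfur cluster assembly, had 0.312, 0.409 and 0.463 FPKM at 0 h and a wider 72.3, 29.3 and 59.7 at 12 h, where replicate 2 was lowest and still above the 0 h libraries.

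The other genes of the 12 highest folds were rop guanine nucleotide exchange factor 5 (CsaV3_6G001490), which switches on small GTPases, at 5.91 on the log2 scale, ROOT INITIATION DEFECTIVE 3-like (CsaV3_4G008210) at 5.58, a putative pentatricopeptide repeat protein (CsaV3_7G004370) at 5.53, a phenolic glucoside malonyltransferase 2-like gene (CsaV3_1G033870) at 5.26 and a putative RNA-directed DNA polymerase (CsaV3_7G024500) at 5.15. The clock genes APRR3 and GIGANTEA-like complete this set.

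The 12 lowest folds likewise covered several kinds of genes. Root phototropism protein 3-like (CsaV3_1G039050) had 62.4, 54.3 and 63.2 FPKM at 0 h and 0.969, 0.772 and 1.197 at 12 h, every 12 h library being far lower (log2 fold change -5.36 ± 0.12 SE, limma adjusted p = 6.47e-12). Transcription factor bHLH35-like (CsaV3_2G008770) had 228, 228 and 214 FPKM and 6.63, 6.11 and 3.103. Its log2 fold change was -5.34 ± 0.20 SE (limma adjusted p = 6.15e-10). For the 12 lowest folds, too, the lack of overlap was a condition of the choice. High mobility group B protein 9 (CsaV3_4G037000), a DNA-binding protein, fell by 4.89 on the log2 scale and was at 0.906 FPKM already at 3 h. Trichome birefringence-like 19 (CsaV3_5G038980), of a family of cell wall acetyltransferases, fell by 4.80, the chloride channel CLC-b-like (CsaV3_2G034160) by 4.40, the microtubule protein TORTIFOLIA1 (CsaV3_6G036020) by 4.14 and the homeobox factor HAT22 (CsaV3_3G026410) by 3.89.

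By FPKM, large losses fell on a dynein light chain gene (CsaV3_3G044330), with 2178, 2043 and 2331 FPKM at 0 h and 440.3, 395 and 465 at 12 h, and on the translationally-controlled tumor protein homolog (CsaV3_3G014730), from 3253 ± 189 to 1234.2 ± 60.5. A pair of inositol-3-phosphate synthase-like genes, which make the precursor of myo-inositol, fell in step, CsaV3_UNG190490 from 2572 ± 84.6 to 805 ± 52.5 and CsaV3_4G004810 from 2172 ± 67 to 723 ± 37.4. Their values are alike and 1 of them lies on an unplaced sequence, so they may share reads.

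Of the heat shock proteins and factors, 32.2% were higher at 12 h and 11.9% lower, against 9.62% and 16.6% of all tested genes. Heat shock proteins fold and protect other proteins, and heat stress transcription factors switch their genes on. Of 59 tested, 19 were higher and 7 lower, and the share of the summed FPKM went from 0.210% to 0.596%. Heat shock protein 70 (CsaV3_4G024840) had 44.9, 40.1 and 44.2 FPKM at 0 h and 1055, 1043 and 1114 at 12 h. All 12 h libraries were far higher (log2 fold change 4.62 ± 0.11 SE, limma adjusted p = 9.81e-12). A further Hsp70 gene (CsaV3_5G026450) rose from 38.5 ± 2.12 to 504 ± 36.5 FPKM. Heat shock cognate protein 80 genes, of the Hsp90 family, rose from 30.8 to 424 (CsaV3_1G038710) and from 17.7 to 240.4 (CsaV3_1G038690).

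Heat stress transcription factor A-6b (CsaV3_3G012910) went from 1.605, 1.76 and 1.35 FPKM to 51.5, 43.8 and 42.2, with no overlap (log2 fold change 4.48 ± 0.12 SE, limma adjusted p = 3.59e-11). Small heat shock proteins were split. The 17.3 kDa class I gene CsaV3_1G035830 rose from 4.01 to 89.3 FPKM and the 15.4 kDa class V gene CsaV3_1G010860 from 10.6 to 95.8, while the 17.8 kDa class I gene CsaV3_5G008690 fell from 4.89 to 0.532 and heat stress transcription factor C-1 (CsaV3_2G002270) from 331 to 77.7. A chloroplastic small heat shock protein (CsaV3_5G030610) had 48.7, 147 and 23.4 FPKM at 0, 3 and 12 h. Its call as lower at 12 h ended after median-ratio rescaling (-0.79), after quantile normalization (-0.87) and without 12 h replicate 3 (-0.97).

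Genes of the SWEET sugar transporters moved in opposite directions. SWEET proteins let sugars cross membranes. SWEET2 (CsaV3_4G032810) had 328, 347 and 319 FPKM at 0 h and 32.3, 38.03 and 35 at 12 h, all lower (log2 fold change -3.22 ± 0.09 SE, limma adjusted p = 4.94e-11). SWEET17 (CsaV3_3G014800), a fructose carrier of the vacuole in Arabidopsis, had 4.51, 4.59 and 4.899 FPKM and 98.3, 117 and 126, all higher (log2 fold change 4.46 ± 0.16 SE, limma adjusted p = 3.04e-10). SWEET7 (CsaV3_4G006850) fell from 11.2 to 1.28 FPKM, sugar transport protein 13-like (CsaV3_6G038210) rose from 0.686 to 4.88, and SWEET1 (CsaV3_6G031030) fell by 1.11 on the log2 scale, or -0.84 and not called after median-ratio rescaling. In all, 9 of 28 sugar transporters were lower and 3 higher, and their share of the summed FPKM went from 0.149% to 0.0738%.

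Starch and sucrose metabolism had 24 higher and 36 lower genes of 223 (29 and 25 after rescaling), with shares near those of all tested genes. Inactive beta-amylase 9 (CsaV3_6G005730) had 358, 333 and 349 FPKM at 0 h and 37.9, 31.2 and 35.8 at 12 h, all lower (log2 fold change -3.29 ± 0.08 SE, limma adjusted p = 9.72e-12). Sucrose-phosphate synthase 2 (CsaV3_2G011150), of sucrose synthesis, fell from 249 ± 16.7 to 52.2 ± 3.54 FPKM. Beta-amylase 3 (CsaV3_3G002150), which degrades starch in the chloroplast, rose from 59.8 ± 2.66 to 155 ± 25.6, and granule-bound starch synthase 1 (CsaV3_5G001560) from 378 ± 20.4 to 861 ± 49.3, the latter at 0.95 on the log2 scale and not called after quantile normalization.

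Galactose and raffinose metabolism had 13 higher (13.0%) and 15 lower (15.0%) genes of 100, or 18 and 12 after rescaling. Over all tested genes the shares were 9.62% and 16.6%. Galactinol synthase 1-like (CsaV3_5G031520), of the first step towards raffinose, had 0.185, 0.155 and 0.07605 FPKM at 0 h and 8.98, 9.02 and 13.7 at 12 h (log2 fold change 4.09 ± 0.31 SE, limma adjusted p = 2.23e-07). All 12 h libraries were above all 0 h libraries. Galactinol-sucrose galactosyltransferase 2-like (CsaV3_4G011820) fell from 1692 ± 47.5 to 664 ± 211 FPKM, and beta-galactosidase 1 (CsaV3_3G043890) from 112 ± 10.4 to 13.3 ± 1.32.

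Some aquaporin genes rose in both the vacuole membrane and the plasma membrane families. These proteins pass water and small solutes. Of 22 tested, 7 were higher and 3 lower, and their share of the summed FPKM went from 0.553% to 1.12%. TIP1-1 (CsaV3_6G040100) had 519, 585 and 511 FPKM at 0 h and 2505, 3029 and 3296 at 12 h, and TIP2-2 (CsaV3_5G004290) had 7.24, 10.3 and 6.39 and 114, 139.6 and 221. In both genes all 12 h libraries were higher, with log2 fold changes of 2.44 (adjusted p = 4.36e-09) and 4.20 (adjusted p = 2.28e-08, limma). The plasma membrane aquaporins PIP2-2 (CsaV3_6G039540) and PIP2-1-like (CsaV3_6G039520) rose from 99.6 to 527 and from 69.5 to 252 FPKM, while TIP4-1 (CsaV3_2G030920) fell from 84.04 ± 10.5 to 13.6 ± 1.37 and TIP2-1-like (CsaV3_7G033520) from 5.79 to 1.42. The PIP2 genes have near numbers and similar names, and their reads may be split.

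Pigment metabolism moved in both directions. Protochlorophyllide reductase (CsaV3_4G033870), the light-dependent step of chlorophyll synthesis, had 72, 74.5 and 76.9 FPKM at 0 h and 337, 418 and 323 at 12 h, all higher (log2 fold change 2.25 ± 0.12 SE, limma adjusted p = 8.59e-09). Genes of chlorophyll breakdown were split. Chlorophyll b reductase NYC1 (CsaV3_1G024260) rose from 29.3 ± 2.26 to 142 ± 11.5 FPKM, and red chlorophyll catabolite reductase (CsaV3_2G016730) from 5.83 ± 0.784 to 58.2 ± 5.07. STAY-GREEN LIKE (CsaV3_6G031220) fell from 174 ± 10.5 to 51.8 ± 2.96. Chlorophyllase-1 (CsaV3_5G025230) fell from 102 to 23.3, and chlorophyllase-1-like (CsaV3_2G013640) rose from 1.24 to 11.8. The group had 7 higher and 8 lower genes of 58, or 10 and 7 after rescaling.

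Carotenoid synthesis had 16 higher and 11 lower genes of 60, but the list holds genes of the abscisic acid branch and of other functions. Its highest members by fold, CsaV3_7G030330 and CsaV3_7G030340, are neighbouring short-chain dehydrogenase genes, of which the first rose from 5.52 to 154 FPKM, and its lowest are an indole-3-acetaldehyde oxidase-like gene (CsaV3_4G017450) and a secoisolariciresinol dehydrogenase (CsaV3_5G005510). Among pigment enzymes, zeaxanthin epoxidase (CsaV3_7G001140) fell from 42.8 ± 3.02 to 14.3 ± 0.882 FPKM and 15-cis-phytoene desaturase (CsaV3_3G040590) from 21.6 ± 0.572 to 2.59 ± 0.2997. Carotenoid cleavage dioxygenase 4 (CsaV3_4G007180), which degrades carotenoids, rose from 42.1 to 109 FPKM.

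Phenylpropanoid genes moved in both directions. 4-Coumarate-CoA ligase activates hydroxycinnamic acids for lignin and flavonoids. 4CL1 (CsaV3_3G032630) had 48.6, 48.6 and 51.1 FPKM at 0 h and 4.03, 5.16 and 4.42 at 12 h, and 4CL2 (CsaV3_2G036090) had 6.08, 4.73 and 6.47 and 66.3, 79.5 and 71.7. One gene fell in every library and the other rose in every library, with log2 fold changes of -3.32 (adjusted p = 7.79e-11) and 3.55 (adjusted p = 3.27e-08, limma). Phenylalanine ammonia-lyase 1 (CsaV3_6G039660), the entry step, fell from 25.3 ± 1.37 to 4.45 ± 0.479 FPKM. Cytochrome P450 84A1 (CsaV3_6G046880), known in Arabidopsis as ferulate 5-hydroxylase of lignin synthesis, rose from 8.97 ± 0.293 to 149 ± 5.72, and cinnamyl alcohol dehydrogenase 1 (CsaV3_7G008140) from 2.18 ± 0.452 to 32.9 ± 14.1. The group had 22 higher and 32 lower genes of 153, and 24 and 20 after median-ratio rescaling.

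Flavonoid synthesis had 19 higher and 11 lower genes of 62. Its enzymes chalcone synthase 2 (CsaV3_3G027830), chalcone isomerase (CsaV3_5G026140) and naringenin 3-dioxygenase-like (CsaV3_6G009030) rose from 175 to 466, from 2.01 to 11.1 and from 22.5 to 93.2 FPKM. The largest rises of the list lay in the malonyltransferase CsaV3_1G033870 and in CsaV3_3G036350, a hypothetical protein, and the largest falls in the SRG1-like oxygenases CsaV3_1G028060 and CsaV3_1G028310, whose descriptions name no flavonoid enzyme. Class III peroxidases had 8 higher and 4 lower genes of 38, or 2 lower after rescaling or without 0 h replicate 1. Peroxidase 2-like (CsaV3_4G023630) rose from 24.7 ± 2.55 to 273 ± 56.3 FPKM and its neighbour CsaV3_4G023640 from 7.02 to 43.6, and peroxidase 42 (CsaV3_1G010780) fell from 415 to 169. Terpenoid and sterol synthesis had 10 higher (9.35%) and 14 lower (13.1%) of 107, or 16 and 9 after rescaling. The shares over all tested genes were 9.62% and 16.6%, so the higher share was near that background and the lower share below it. A single member of this list, ent-kaurene synthase (CsaV3_7G023060), of gibberellin synthesis, fell from 32 ± 3.38 to 3.61 ± 0.817 FPKM.

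Surface lipid genes gave no higher member by limma, and desaturases were split. Of 28 tested genes of cutin, suberin and wax synthesis 8 were lower and none higher by limma, with 6 and none after median-ratio rescaling. With a pseudocount of 0.1, 1 was higher. HOTHEAD (CsaV3_7G034800), which in Arabidopsis is needed for cutin, fell from 15.3 ± 0.816 to 2.89 ± 0.5102 FPKM, and cytochrome P450 86A7 (CsaV3_5G002710) from 6.304 to 1.45. Fatty acid desaturases had 5 higher and 4 lower of 17. The omega-3 desaturase of the endoplasmic reticulum (CsaV3_1G036250), which makes linolenic acid, had 35.1, 36.2 and 38.5 FPKM at 0 h and 102, 117 and 135 at 12 h, all higher (log2 fold change 1.67 ± 0.10 SE, limma adjusted p = 2.1e-08). Delta-8 desaturase 2 (CsaV3_6G000930) rose from 15.1 ± 0.526 to 71.3 ± 3.33. The desaturase of monogalactosyldiacylglycerol, a chloroplast lipid (CsaV3_4G001630), fell from 432 ± 7.35 to 90.8 ± 10.6. The lowest member by fold, phytoene desaturase, acts on carotenoids and not on fatty acids.

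Cytokinin genes were split. Of 33 tested, 11 were higher and 8 lower, or 12 and 5 after median-ratio rescaling. Genes for the cytokinin riboside monophosphate phosphoribohydrolases that free active cytokinin rose in CsaV3_4G035760, with 16.1, 19.99 and 14 FPKM at 0 h and 209.8, 129.7 and 222 at 12 h, and in CsaV3_6G013990, from 26.7 ± 4.86 to 168 ± 15.4. All 12 h libraries of the former were higher (log2 fold change 3.43 ± 0.19 SE, limma adjusted p = 1.52e-08). The gene CsaV3_7G030990 of the same enzyme fell from 59.2 ± 3.34 to 12.2 ± 0.673 FPKM. The response regulator ARR9-like (CsaV3_5G024480), of a type that cytokinin switches on, rose from 3.47 to 23.3 FPKM and was at 4.01 at 24 h. The phosphotransfer protein 1-like gene (CsaV3_1G039330), which passes the signal on, had 11.3, 10.1 and 11.4 FPKM at 0 h and 0.148, 0.414 and 0 at 12 h, lower in every 12 h library.

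Auxin transport and response genes gave 22 lower (25.0%) and 11 higher (12.5%) of 88, or 19 and 16 after median-ratio rescaling. Auxin influx carriers were split. Auxin transporter-like protein 2 (CsaV3_3G034000) had 52.4, 51.1 and 55.9 FPKM at 0 h and 4.14, 4.34 and 3.53 at 12 h, all lower (log2 fold change -3.58 ± 0.10 SE, limma adjusted p = 4.67e-11). Transporters 4 (CsaV3_4G026200) and 1 (CsaV3_6G001710) fell by 2.61 and 2.56 on the log2 scale, whereas transporter 3 (CsaV3_5G023170) rose by 1.27. An auxin-repressed 12.5 kDa protein gene (CsaV3_6G050280) fell from 1094 ± 136 to 162 ± 58.1 FPKM, AUX28-like (CsaV3_2G013720) from 158 to 38.04 and the auxin receptor F-box gene AUXIN SIGNALING F-BOX 2 (CsaV3_6G049730) from 42.05 to 9.95. A SAUR gene (CsaV3_2G015400) rose from 1.602 to 16.8.

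Abscisic acid genes gave 7 higher and 8 lower of 33, or 7 and 5 after rescaling. The gene of its rate-limiting synthesis step, 9-cis-epoxycarotenoid dioxygenase (CsaV3_1G032340), had 0.122, 0 and 0 FPKM at 0 h and 7.14, 3.41 and 5.88 at 12 h. It was near 0 in all control libraries (log2 fold change 3.42 ± 0.29 SE, limma adjusted p = 5.19e-07). The gene of the breakdown enzyme abscisic acid 8'-hydroxylase 3 (CsaV3_7G025110) rose from 0.693 to 9.69 FPKM. The receptors PYL4-like (CsaV3_3G033450) and PYL8 (CsaV3_7G025250) fell from 39.8 to 10.8 and from 233 to 106 FPKM, the latter at -0.87 on the log2 scale and not called after rescaling.

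Ethylene genes gave 22 higher (22.7%) and 16 lower (16.5%) of 97, or 26 and 13 after rescaling. The lower share was near the 16.6% of all tested genes, of which 9.62% were higher. The response factor CRF2-like (CsaV3_5G002210), of a clade that cytokinin also controls in Arabidopsis, had 1.33, 1.21 and 1.02 FPKM at 0 h and 46.9, 45.5 and 44.7 at 12 h. ERF053 (CsaV3_7G004340) had 0, 0.08795 and 0 and 13.5, 14.4 and 13.7. Both were higher in every 12 h library, at log2 fold changes of 4.78 (adjusted p = 1.27e-12) and 4.77 (adjusted p = 1.28e-11, limma). The ethylene-forming oxidase gene CsaV3_6G037780 rose from 11.2 to 76.7 FPKM. CsaV3_2G012920, described only as a homolog of such an oxidase, fell from 72.5 to 5.55. EIN2 (CsaV3_6G039650), of ethylene signalling, fell from 18.9 to 6.64, and EIN3 (CsaV3_1G042150) fell by 1.17 on the log2 scale, or -0.91 and not called after rescaling.

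Jasmonate and linolenic acid genes gave 6 higher (11.1%) and 5 lower (9.26%) of 54, against 9.62% and 16.6% of all tested genes. Lipoxygenase 3-1 (CsaV3_7G034390) rose from 1.95 to 12.3 FPKM and 12-oxophytodienoate reductase 1 (CsaV3_2G033050) from 114 ± 15.3 to 550.1 ± 90.7. Gibberellin and brassinosteroid genes gave 3 higher and 3 lower of 24, 4 and 2 after rescaling, or 5 lower without 0 h replicate 2 or without 12 h replicate 1, among them the repressor DELLA protein GAI (CsaV3_5G024130), which fell from 35.7 to 10.8 FPKM, and gibberellin 2-beta-dioxygenase 8 (CsaV3_1G011060), of gibberellin breakdown, which rose from 7.097 to 26.6.

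Genes of the cold response were split at 12 h. DREB1 factors, known as CBF, bind the C-repeat of cold-responsive genes, and ICE1 lies upstream of them in Arabidopsis. Of 12 tested genes of the DREB and cold-regulated group 4 were higher and 3 lower, and 4 and 2 after rescaling. DREB2A-like (CsaV3_4G026910) had 2.49, 2.65 and 2.25 FPKM at 0 h and 20.5, 16.7 and 18.2 at 12 h, all higher (log2 fold change 2.68 ± 0.11 SE, limma adjusted p = 1.07e-09). Its close relative CsaV3_4G026790 rose from 1.39 to 14.1 FPKM and DREB2C (CsaV3_6G002010) from 6.53 to 26.7. DREB1A (CsaV3_3G016760) had means of 0.8904, 5.83, 0.07805 and 4.86 FPKM at 0, 3, 12 and 24 h. It was called lower at 12 h than at 0 h (-1.25), but at these low levels the call ended with a pseudocount of 1 (-0.80). ICE1 (CsaV3_3G027730) fell from 27.8 ± 2.54 to 9.44 ± 0.924 FPKM, and ICE1-like (CsaV3_1G009900) rose from 9.14 ± 0.579 to 31.1 ± 1.86.

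Dehydrin and LEA genes, whose proteins protect dehydrating cells, gave 3 lower and none higher of 9 by limma, and 2 were higher without 12 h replicate 2. Dehydrin DHN1-like (CsaV3_4G005460) had 3.67, 6.91 and 5.29 FPKM at 0 h and 2.95, 0.618 and 1.53 at 12 h, lower in all 12 h libraries (log2 fold change -1.51 ± 0.44 SE, limma adjusted p = 0.0103). It stood at 58.2 FPKM at 3 h and 238 at 24 h. The differences of 12 h minus 3 h and 12 h minus 24 h were -4.88 and -6.77 on the log2 scale (adjusted p = 3.5e-06 and 7.41e-07, limma).

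Other transcription factor families were read against the same background. MYB factors gave 18 lower and 6 higher of 59, or 15 and 9 after rescaling. MYB1R1 (CsaV3_3G002560) fell from 75.5 ± 4.34 to 7.87 ± 1.86 FPKM and MYB108-like (CsaV3_1G006660) rose from 3.69 ± 0.593 to 41.7 ± 10.5. NAC factors gave 9 higher and 5 lower of 41. NAC2-like (CsaV3_6G034250) rose from 19.6 ± 1.14 to 202 ± 17.4 FPKM, and NAC2 (CsaV3_2G019740) was at 20.03, 370.2, 159 and 565 FPKM at 0, 3, 12 and 24 h, lower at 12 h than at both other cold times (12 h minus 3 h -1.22, 12 h minus 24 h -1.83, adjusted p = 1.09e-06 and 1.03e-07, limma). WRKY factors gave 4 higher (9.3%) and 8 lower (18.6%) of 43, near the 9.62% and 16.6% of all tested genes, or 5 and 5 after rescaling. WRKY31 (CsaV3_7G003470) rose from 4.01 to 34.8 FPKM and WRKY27 (CsaV3_4G001260) fell from 29.01 to 4.14.

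Calcium sensors and kinases gave 12 higher (13.0%) and 16 lower (17.4%) of 92, or 13 and 10 after rescaling. The lower share was near the 16.6% of all tested genes, of which 9.62% were higher. CBL-interacting kinases carry calcium signals. CIPK1 (CsaV3_3G015590) had 164, 168 and 161 FPKM at 0 h and 13.8, 13.7 and 11.97 at 12 h, all lower (log2 fold change -3.60 ± 0.13 SE, limma adjusted p = 3.07e-10). A CIPK14-like pair on unplaced sequences, CsaV3_UNG100750 and CsaV3_UNG100740, fell by 3.59 and 3.18, and these neighbours may share reads. A further CIPK gene (CsaV3_3G032810) rose from 1.56 to 17.5 FPKM and the calcium-binding CML44 (CsaV3_6G034010) from 2.19 to 27.2.

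Genes of ribosome assembly and of ribosomal proteins differed in how many passed. Of 102 tested genes of ribosome biogenesis 20 were higher and 7 lower, and 30 and 5 after rescaling. The median log2 fold change of the group was 0.28, or 0.51 after rescaling. H/ACA ribonucleoprotein subunit 4 (CsaV3_1G005920), which pseudouridylates ribosomal RNA, had 1.17, 2.68 and 1.53 FPKM at 0 h and 23.9, 31.7 and 26.6 at 12 h, all higher (log2 fold change 3.65 ± 0.21 SE, limma adjusted p = 1.82e-08). Cirhin (CsaV3_4G035140), WD repeat-containing protein 3 (CsaV3_6G040110) and a U3 small nucleolar RNA-associated protein (CsaV3_7G028370), all of the early small subunit precursor, rose from 5.603 to 25.03, from 3.39 to 15.2 and from 2.22 to 13.99 FPKM. Of 157 cytosolic ribosomal protein genes 4 were higher and 3 lower, with 13 and 1 after rescaling, and plastid-type and mitochondrial-type ribosomal proteins gave 4 and 1 of 47, or 7 and 1 after rescaling. Without 0 h replicate 2 or without 12 h replicate 3 the latter had 2 higher, and without 12 h replicate 1 they had 2 lower. RNA helicases gave 11 higher and 8 lower of 55, or 14 and 3 after rescaling, with the chloroplastic helicase 3 (CsaV3_1G038160) rising from 65.3 ± 0.726 to 368 ± 12.97 FPKM. Spliceosome genes gave 19 higher (9.1%) and 21 lower (10.1%) of 208, or 26 and 10 after rescaling. Over all tested genes 9.62% were higher and 16.6% lower. The highest of the spliceosome list by fold were the Hsp70 genes CsaV3_4G024840 and CsaV3_5G026450. Aminoacyl-tRNA synthesis gave 6 and 10 of 86, or 7 and 6 after rescaling, and its leading members by fold, such as dirigent protein 7-like (CsaV3_4G023490), carry descriptions that name no synthetase.

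DNA replication and histones gave 10 lower (11.8%) and 3 higher (3.53%) of 85, or 10 and 5 after rescaling. As deposited, both shares were below those of all tested genes, at 16.6% and 9.62%. After rescaling, 10 lower genes, or 11.8%, lay near the 11.4% of all tested genes, so the lower share depended on the scaling. Histone H2A.5 (CsaV3_2G006590) had 81.5, 80.3 and 68.1 FPKM at 0 h and 14.6, 10.2 and 14.9 at 12 h, and histone H1 (CsaV3_6G046960) had 132, 141 and 129.6 and 34.1, 26.9 and 31.1. Both were lower in every 12 h library, at -2.51 (adjusted p = 5.63e-08) and -2.12 (adjusted p = 2.38e-09, limma). Histone H4 (CsaV3_6G017050) and H2A variant 1 (CsaV3_2G013770) fell by 2.01 and 1.58 on the log2 scale, and the replication clamp PCNA-like (CsaV3_5G008820) rose from 0.784 to 2.74 FPKM.

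In protein breakdown, ubiquitin ligases of the U-box and RING types gave 18 higher (7.12%) and 48 lower (19.0%) of 253, or 27 and 35 after rescaling, near the shares of 9.62% and 16.6% over all tested genes. Examples are RING1-like (CsaV3_5G032780), which rose from 9.3 ± 1.496 to 148 ± 6.19 FPKM, and RMA1H1 (CsaV3_6G012970), which fell from 65.9 ± 0.622 to 9.26 ± 0.7698. The proteasome list gave 2 and 6 (8.70%) of 69, below that background, and its lowest members by fold, root phototropism protein 3-like (CsaV3_1G039050) and a BTB/POZ protein (CsaV3_2G016510), are not proteasome subunits. Autophagy gave none higher and 3 lower of 18 by limma, and 1 lower after rescaling, with ATG8C (CsaV3_6G049010) at 17.9 and 5.52 FPKM.

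Oxidative phosphorylation gave 4 higher and 7 lower of 133, or 7 and 6 after rescaling. Alternative oxidase and uncoupling proteins gave 2 higher and 1 lower of 9 (3 and 0 after rescaling), the former being uncoupling protein 5 (CsaV3_6G045100), from 39.6 ± 1.51 to 132 ± 11.4 FPKM, and an external alternative NAD(P)H oxidase (CsaV3_1G011780), from 1.11 to 6.43. The breakdown of valine, leucine and isoleucine, which feeds the mitochondria in the dark or in starvation, gave 19 lower and 8 higher of 68, or 15 and 11 after rescaling. The alpha subunit of 2-oxoisovalerate dehydrogenase (CsaV3_6G034530) had 31.7, 35.8 and 29.8 FPKM at 0 h and 13.7, 8.16 and 5.88 at 12 h, and methylcrotonoyl-CoA carboxylase (CsaV3_7G008530) had 20.9, 22.1 and 20.4 and 5.98, 5.06 and 5.798. Both genes were lower in all 12 h libraries (log2 fold changes -1.83 and -1.83, adjusted p = 7.78e-05 and 4.5e-07, limma). Isovaleryl-CoA dehydrogenase (CsaV3_6G021710) fell by 1.24, or -0.99 and not called after rescaling.

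Antioxidant enzymes other than the glutathione S-transferases differed by group in their share of higher genes. The group of superoxide dismutases, ascorbate enzymes, catalases and thioredoxins gave 3 higher (4.5%) and 12 lower (18.2%) of 66, or 4 and 7 after rescaling. Over all tested genes 9.62% were higher and 16.6% lower, so the lower share was near that background. The median log2 fold change of the group was 0.04, against -0.23 over all tested genes. Thioredoxin M3 (CsaV3_7G008540), of the chloroplast, had 0, 0.226 and 0 FPKM at 0 h and 6.01, 6.098 and 5.72 at 12 h, and the thioredoxin-like CDSP32 (CsaV3_2G024440) rose from 66.1 ± 2.13 to 277 ± 11.1. Monodehydroascorbate reductase (CsaV3_5G027310), which renews ascorbate, fell from 249.8 ± 2.33 to 68.1 ± 1.53. A cytosolic ascorbate peroxidase (CsaV3_1G033510) rose from 410.3 ± 13.1 to 911 ± 40.5, at 0.92 on the log2 scale and not called after quantile normalization. Glutathione metabolism without CsGSTs gave 7 higher (13.0%) and 6 lower (11.1%) of 54, or 10 and 3 after rescaling. Its share of the summed FPKM went from 0.461% to 0.639%. Its highest and lowest members by fold include the cyclin-U genes CsaV3_6G009080 and CsaV3_2G035200, which are not glutathione enzymes.

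Cell wall loosening gave 14 higher (13.3%) and 24 lower (22.9%) of 105, against 9.62% and 16.6% of all tested genes. After median-ratio rescaling it had 17 higher and 19 lower, so its balance depended on the scaling. Expansin-A8 (CsaV3_6G002280) fell from 272 ± 23.6 to 62.4 ± 11.1 FPKM and a polygalacturonase (CsaV3_2G024660) from 59.2 ± 5.44 to 6.19 ± 1.14, while a polygalacturonase inhibitor (CsaV3_7G008270), which blocks pectin breakdown, rose from 1.51 ± 0.367 to 21.9 ± 1.04.

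Over all annotation, 13557 genes carried a GO term and 6962 a KEGG pathway. The terms below were chosen by their share of higher or lower genes among terms with at least 20 tested genes, and are a description without a test of enrichment. After the antenna proteins, KEGG pathways with many higher genes were carotenoid synthesis, isoquinoline alkaloid synthesis with 5 higher and 2 lower of 20 (6 and 1 after rescaling), beta-alanine metabolism with 10 and 9 of 43, and glycine, serine and threonine metabolism with 15 and 8 of 80. The pathway with the highest share of lower genes was homologous recombination, with 40 lower and 6 higher of 120. Of the 40, 17 are described as DNA topoisomerase 2-binding protein 1 and 18 lie on unplaced sequences, so that many may be near-identical copies, whose reads may be shared. Plant circadian rhythm followed with 26 lower and 14 higher of 79, or 20 and 16 after rescaling. Pantothenate and CoA synthesis had 10 lower and 1 higher of 32, of which 4 and 1 were left after rescaling.

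Among GO terms, channel activity had 9 higher and 4 lower of 26, heme binding 53 and 30 of 200, peroxidase activity 12 and 4 of 47 and the nucleolus 12 and 2 of 54, the last with 14 and 0 after rescaling and peroxidase activity with 13 and 2. Double-stranded DNA binding had 13 higher and 1 lower of 49 (19 and 0 after rescaling), but 12 of the 13 are uncharacterized or hypothetical proteins and 10 lie on chromosome 5. On the lower side stood ADP binding, with 14 lower of 36, of which 10 are described as resistance proteins, signal transduction with 26 lower and 5 higher of 79, serine carboxypeptidase activity with 10 and 3 of 22 (5 and 3 after rescaling) and the nucleosome with 13 and 1 of 41, of which 4 are described as histones. No ADP binding gene was higher by limma at the thresholds used.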

How the data were processed

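RNA-seq of cucumber leaves was deposited by the authors as FPKM in 12 libraries, 3 at each of 4 times. Reads were trimmed (cutadapt 1.9 and FastQC in the submitters' processing notes) and aligned by the authors to the genome of Chinese Long V3 with HISAT2. FPKM came from a program not given in the sources used here, and its value 0.0001, which stands for 0, was set to 0. The authors' columns of fold changes, p-values and q-values were not used.

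Genes had to reach 0.5 FPKM in 3 or more libraries, which left 17497. On these, log2(FPKM + 0.5) in the 12 libraries entered 1 fit without a replicate block in limma 3.58.1 (R 4.3.3; lmFit, eBayes with trend and robust), and 12 h was compared with 0 h, 3 h and 24 h. Tables and figures were drawn in Python 3.11.15 (numpy 2.4.6, pandas 2.3.3, matplotlib 3.10.9). The fit was tested on simulated data. The 54 gene lists came from descriptions and KEGG pathways. By rule, the 12 highest and 12 lowest folds and the 8 largest gains and losses in FPKM were named. These were taken among called genes with a described function, no overlap between libraries and a mean of at least 5 FPKM at either time. The rule also named the 2 highest and 2 lowest called members of each list, without limits on overlap, FPKM or description. Genes named outside this rule were chosen after their values were seen. The comparison, lists and rule were chosen with earlier results of these data known. Alternatives were pseudocounts of 0.1 and 1, no filter or one of 1 FPKM, quantile normalization, median-ratio rescaling, the 6 libraries alone, the replicate block, leaving out each library, and other thresholds. A planned search of promoter motifs was not run, since no sequence was used here.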

Additional observations from a re-analysis of the deposited data

How the results depend on the processing

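The counts of 1684 higher and 2912 lower genes stayed within 1.5 times under both pseudocounts, both filters, both rescalings, the 6 libraries alone and an adjusted p under 0.01. Quantile normalization gave 2144 higher and 2113 lower. A log2 fold threshold of 2 gave 507 higher and 530 lower genes, and no fold threshold gave 4293 and 7817. Without each library in turn the counts were 1621 to 1753 higher and 2811 to 3161 lower. The replicate block gave 1686 higher and 2912 lower and changed no call of a named gene. Same-numbered libraries of the 2 times did not deviate together across genes (correlations of 0.039, -0.040 and -0.017). The sources used here do not say whether they were handled together, and these correlations cannot show it. Of the 302 genes named by the rule or in the text, 13 lost their call after median-ratio rescaling, 8 after quantile normalization, 3 with a pseudocount of 1 and 1 with a pseudocount of 0.1. Median-ratio rescaling added 1 call, and leaving out each library in turn ended 10 calls of 6 genes, 5 of them in the assembly gene COX11 (CsaV3_UNG144100), and added 4 calls of 2 genes. The leaf glutamine synthetase gene CsaV3_3G013840, not called, changed sign to -0.20 after quantile normalization. Over all alternatives, 70 of 1512 list counts moved by more than 1.5 times, most of them after a rescaling or with another pseudocount. The cause was not tested. The sources used here give no read totals, so that counting error could not be set beside single FPKM values, and the low genes named here, such as DREB1A, are the least certain.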
